A study of Arabidopsis thaliana with 18 samples.

Results

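The expression of genes was compared between rosettes of 2 transgenic lines of Arabidopsis thaliana under low oxygen, HA-RAP2.12 and amiRAP2.2-12. The comparison took every array whose title names a hypoxic sample of either line, which gave 6 of the 18 arrays of the series, 3 of each line. HA-RAP2.12 plants carried 35S::HA::RAP2.12, a RAP2.12 protein with an HA tag at its front. Plants of the amiRAP2.2-12 line carried 35S::amiRAP2.2-12, an artificial microRNA named for RAP2.2 and RAP2.12. Both transgenes were driven by the 35S promoter, which is active in nearly all plant tissues, and both lines were in the Columbia 0 background. Plants were 5 weeks old, had been grown in short days, and were held in the dark for 1.5 h at 1% oxygen. RNA from whole rosettes was hybridised to Affymetrix Arabidopsis Genome arrays. The same lines held in the dark for 1.5 h in air, at 21% oxygen, gave 3 arrays each, and wild type Columbia 0 gave 3 arrays at each oxygen level. The labels do not say whether replicates were separate plants or cultures or whether each line came from 1 transformant, so p-values measure only the spread between these samples. In whole rosettes, fewer cells of a type and less RNA per cell cannot be told apart.

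RAP2.12 and RAP2.2 belong to group VII of the ethylene response factors, the transcription factors that switch on the anaerobic genes of plants. In air, oxygen-dependent oxidation of a cysteine near their start marks them for destruction through the N-degron pathway, and when oxygen falls they are stable and reach the nucleus. A tag at the start of the protein can hide that cysteine, while an artificial microRNA lowers the transcripts it matches. The contrast asks how far rosettes built to hold more or less of these factors differ once oxygen is low. Transcripts of the targeted factors themselves are not analysed here, so the labels were not checked through them.

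The values are log2 signals per probe set, and a difference of 1 is a doubling. On the 6 arrays they ran between 2.11 and 15.96, and 35.3% lay under 2.5, the level treated as the floor, where values have no order. Of the 22746 probe sets tested, 7874 had both hypoxic means at the floor. The arrays of the lines were not equally tight. Over 10982 probe sets with a mean above 6, the median SD was 0.122 in HA-RAP2.12 and 0.223 in amiRAP2.2-12 under hypoxia. Replicate 2 of hypoxic amiRAP2.2-12 stood apart, with 920 of these probe sets (8.38%) more than 1 from the mean of the other arrays of its group, against 428 (3.9%) for replicate 1 and 104 (0.947%) for replicate 3. In HA-RAP2.12 the same count was 148 for replicate 1, 60 for replicate 2 and 22 for replicate 3. The first principal component of the 6 arrays, with 53.52% of the variance, set replicate 2 of amiRAP2.2-12 at 47.06 and all other arrays between -22.36 and 9.86. The second, with 28.15%, separated the lines, with HA-RAP2.12 between -19.71 and -11.58 and amiRAP2.2-12 between 8.54 and 24.30. Results are therefore also given without replicate 2 of hypoxic amiRAP2.2-12. RCA, the activase of Rubisco and the 1 leaf marker of 9 listed that had a named probe set, read 14.94, 14.94 and 14.97 in HA-RAP2.12 rosettes, against 14.94, 15.11 and 14.97 in amiRAP2.2-12, among the brightest values on the arrays. Of 7 root markers 2 had a named probe set. AT4G11290 was near the floor, and PYK10, a beta-glucosidase of roots, varied within both lines, at 5.10, 8.10 and 7.37 in HA-RAP2.12, compared with 8.21, 3.85 and 6.76 in amiRAP2.2-12. Markers of flowers, seeds and senescence were not analysed here, and the part of other tissues in the results was not tested.

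**Figure D1:**
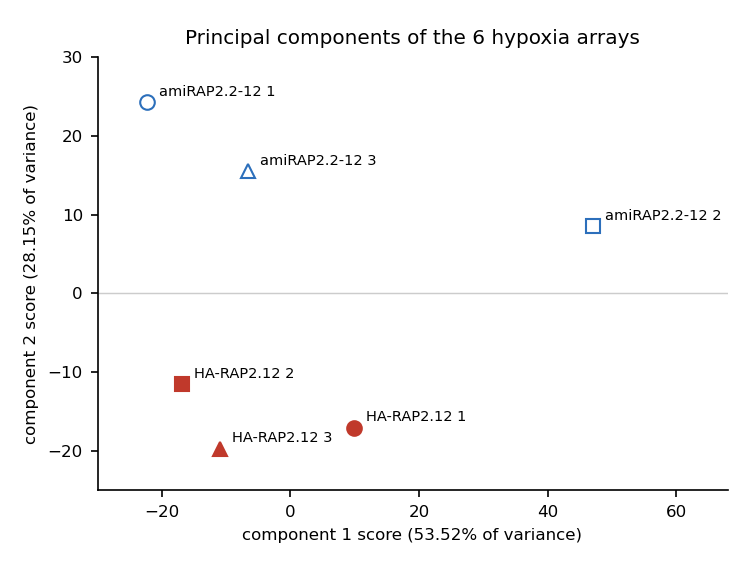
Principal components of the 6 hypoxic arrays, with PC1 (53.52% of the variance) on the horizontal axis and PC2 (28.15%) on the vertical axis, both in component units; each point is an array, coloured by line and labelled by replicate. Replicate 2 of amiRAP2.2-12 lies far to the right at 47.06, while PC2 puts all 3 HA-RAP2.12 arrays below 0 and all 3 amiRAP2.2-12 arrays above it.

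Under hypoxia 46 probe sets differed between HA-RAP2.12 and amiRAP2.2-12 at an adjusted p under 0.05 in limma, 0.202% of those tested. They split evenly, 23 higher in HA-RAP2.12 (0.101%) and 23 lower (0.101%), and in all 46 the 3 and 3 arrays did not overlap. Over all probe sets, 10.2% had groups that did not overlap, with HA-RAP2.12 higher in 4.36% and lower in 5.84%. Single named genes accounted for 22 of the 46, with 11 higher and 11 lower. Another 23 probe sets are not paired with a gene in the annotation used here, and 1 matches several genes. A change of at least 1 on the log2 scale was seen in 26 of the 46, of which 10 were named. Regardless of the test, 296 probe sets (1.3%) differed by that much, 241 with HA-RAP2.12 higher (1.06%) and 55 with it lower (0.242%). Without replicate 2 of amiRAP2.2-12, 121 probe sets passed, 87 higher and 34 lower, and 40 of the 46 were among them. Without its replicates 1 and 3, 47 and 44 passed, with 18 and 22 of the 46 among them. Without replicates 1, 2 and 3 of hypoxic HA-RAP2.12, 30, 61 and 24 passed, with 17, 28 and 12 of the 46 among them. The count was 6, 13 and 7 without replicates 1, 2 and 3 of HA-RAP2.12 in air, and 13 without replicate 2 of amiRAP2.2-12 in air. A fit to the 6 hypoxic arrays alone called 0, with 1525 at an unadjusted p under 0.05. Of the 20 largest named changes, SBT3.3, AT5G25100, AT1G10020 and AT2G22660 kept their call whichever array was left out. For SBT3.3 every group in the fit other than hypoxic HA-RAP2.12 sat at the floor. Each of the remaining genes lost its call in 2 to 12 of the 12 fits without 1 array. BRH1 and AT1G26920 lost it in all 12, and AT3G12910 and AT1G15430 in 11.

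The largest rise of a named gene was that of AT5G14700, a member of the NAD(P)-binding Rossmann-fold family. It read 5.34, 5.55 and 6.16 in HA-RAP2.12, against 3.26, 3.56 and 3.56 in amiRAP2.2-12, a log2 difference of 2.22 ± 0.27 (SE; adjusted p = 0.0263). All HA-RAP2.12 arrays were more than a doubling above the highest amiRAP2.2-12 array. In air the lines read 2.95 ± 0.06 and 3.36 ± 0.48 (SD, n = 3 each), close to the floor. AT3G12910, a transcription factor with a NAC domain, read 4.99, 4.56 and 4.86 in HA-RAP2.12, against 2.11, 3.42 and 2.30 in amiRAP2.2-12. Its log2 difference was 2.19 ± 0.30 (adjusted p = 0.04). That SE pools SDs of 0.22 in HA-RAP2.12 and 0.71 in amiRAP2.2-12 with 0.00 and 0.06 in air, at the floor. Without replicate 2 of amiRAP2.2-12, the highest array of that line, the difference was 2.60 (adjusted p = 0.000833). The call was lost in 11 fits, each without 1 of the other arrays. SBT3.3 (AT1G32960), a subtilase protease known from priming of the immune response, read 3.38, 3.47 and 3.88 in HA-RAP2.12 and 2.11 on each amiRAP2.2-12 array, the lowest value on the arrays. Its log2 difference of 1.46 ± 0.11 (adjusted p = 0.0036) is measured from the floor. The SE and p-value pool the spread of the groups fitted, an SD of 0.27 in hypoxic HA-RAP2.12 and 0.00 in the others. They therefore lean on arrays at the floor, where no spread can be read. Every array in air, of both lines, also read 2.11, so SBT3.3 was above the floor in only the hypoxic HA-RAP2.12 group among these 4 groups of arrays.

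Other rises were of genes well above the floor in both lines. AT1G60730, an aldo-keto reductase, read 7.84, 8.00 and 7.55 in HA-RAP2.12 rosettes, against 6.5, 6.76 and 6.54 in amiRAP2.2-12 (log2 difference 1.20 ± 0.17, adjusted p = 0.0458). AT5G62150, which has a LysM domain of the kind that binds chitin-like sugars, read 6.52, 6.28 and 6.81 in HA-RAP2.12, compared with 4.93, 5.28 and 4.97 in amiRAP2.2-12 (log2 difference 1.48 ± 0.19, adjusted p = 0.037). Neither gene showed any overlap, and the gap between the nearest arrays was larger than the spread within either line. AT5G15870, of a glycosyl hydrolase family, read 9.78, 9.62 and 9.68 in HA-RAP2.12 against 8.79, 9.07 and 8.97 in amiRAP2.2-12, a smaller log2 difference of 0.75 ± 0.09 (adjusted p = 0.0256). AT1G15430 read 9.27, 9.29 and 9.29 in HA-RAP2.12, against 8.46, 8.83 and 8.54 in amiRAP2.2-12, with the 3 HA-RAP2.12 arrays nearly the same.

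Among the remaining risers, AT1G20310 read 4.61, 3.73 and 4.32 in HA-RAP2.12 rosettes, against 2.51, 2.89 and 2.48 in amiRAP2.2-12, and AT1G64700 averaged 4.91 in HA-RAP2.12 and 4.20 in amiRAP2.2-12. NGA3 (AT1G01030), a B3-domain factor that shapes leaves and flowers, read 3.12, 2.99 and 2.92 in HA-RAP2.12, compared with 2.28, 2.2 and 2.35 in amiRAP2.2-12, at the floor. AT2G33710, itself a member of the ethylene response factor family, had the smallest rise, 2.59, 2.74 and 2.61 in HA-RAP2.12 against 2.11, 2.23 and 2.16 in amiRAP2.2-12 (log2 difference 0.48 ± 0.04, adjusted p = 0.00816). Both are thus measured close to the floor. In 7 of the 23 higher probe sets the amiRAP2.2-12 mean was at the floor.

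The largest fall of a named gene was that of AT5G25100, of the endomembrane protein 70 family, whose members sit in the Golgi and endosomes. It read 7.04, 6.89 and 6.64 in HA-RAP2.12, against 8.99, 9.21 and 9.03 in amiRAP2.2-12, a log2 difference of -2.22 ± 0.15 (adjusted p = 0.00296). The lines differed as much in air, at 7.16 ± 0.27 in HA-RAP2.12 and 9.66 ± 0.12 in amiRAP2.2-12 (log2 difference -2.5, adjusted p = 0.00113). In wild type under hypoxia it averaged 8.90, near the amiRAP2.2-12 level. BZIP61 (AT3G58120), a basic leucine zipper transcription factor, read 6.19, 6.5 and 5.60 in HA-RAP2.12 rosettes, against 7.87, 7.76 and 7.92 in amiRAP2.2-12 (log2 difference -1.76 ± 0.24, adjusted p = 0.0419). In air it was brighter in both, at 9.85 ± 0.05 in HA-RAP2.12 and 9.51 ± 0.38 in amiRAP2.2-12, a log2 difference of 0.34. The change of the difference with oxygen, -2.10 ± 0.34, did not pass the test (adjusted p = 0.185). Without replicate 2 of amiRAP2.2-12 its adjusted p was 0.0543, with a log2 difference of -1.80. BZIP61 lost its call in 10 of the 12 fits that left out 1 array. AT5G57760 read 4.08, 3.84 and 4.28 in HA-RAP2.12, compared with 5.81, 5.83 and 5.41 in amiRAP2.2-12, with no overlap and an adjusted p of 0.0256.

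AT1G10020 had the smallest adjusted p of all. It read 7.08, 7.22 and 7.06 in HA-RAP2.12, against 8.24, 8.21 and 8.08 in amiRAP2.2-12, a log2 difference of -1.05 ± 0.06 (adjusted p = 0.00206). In air the lines were within 0.08 of each other, at 9.94 ± 0.04 in HA-RAP2.12 and 9.86 ± 0.09 in amiRAP2.2-12. The other falls of named genes were of less than 0.6. BRH1 (AT3G61460), a RING-H2 protein named for its response to brassinosteroids, read 10.20, 10.14 and 10.03 in HA-RAP2.12 rosettes, against 10.62, 10.69 and 10.61 in amiRAP2.2-12 (log2 difference -0.52 ± 0.07, adjusted p = 0.0448). AT1G26920 averaged 9.88 in HA-RAP2.12 and 10.42 in amiRAP2.2-12. Without replicate 2 of amiRAP2.2-12, BRH1 and AT1G26920 had adjusted p-values of 0.0656 and 0.0539, and both lost their call whichever array was left out. AT2G22660, a glycine-rich domain protein, averaged 9.81 in HA-RAP2.12 and 10.33 in amiRAP2.2-12, and AT5G12040, an omega-amidase that clears a by-product of amino acid breakdown, averaged 8.70 in HA-RAP2.12 and 9.03 in amiRAP2.2-12. AT1G73970 and AT3G49050 fell by 0.31 and 0.14. AT3G26350 is counted among the 22, but all its values in both lines lay under the floor limit, where they have no order, so no size is given for it. AT2G33710 and AT3G49050 were named after their values were seen, to complete the 22.

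**Figure D2:**
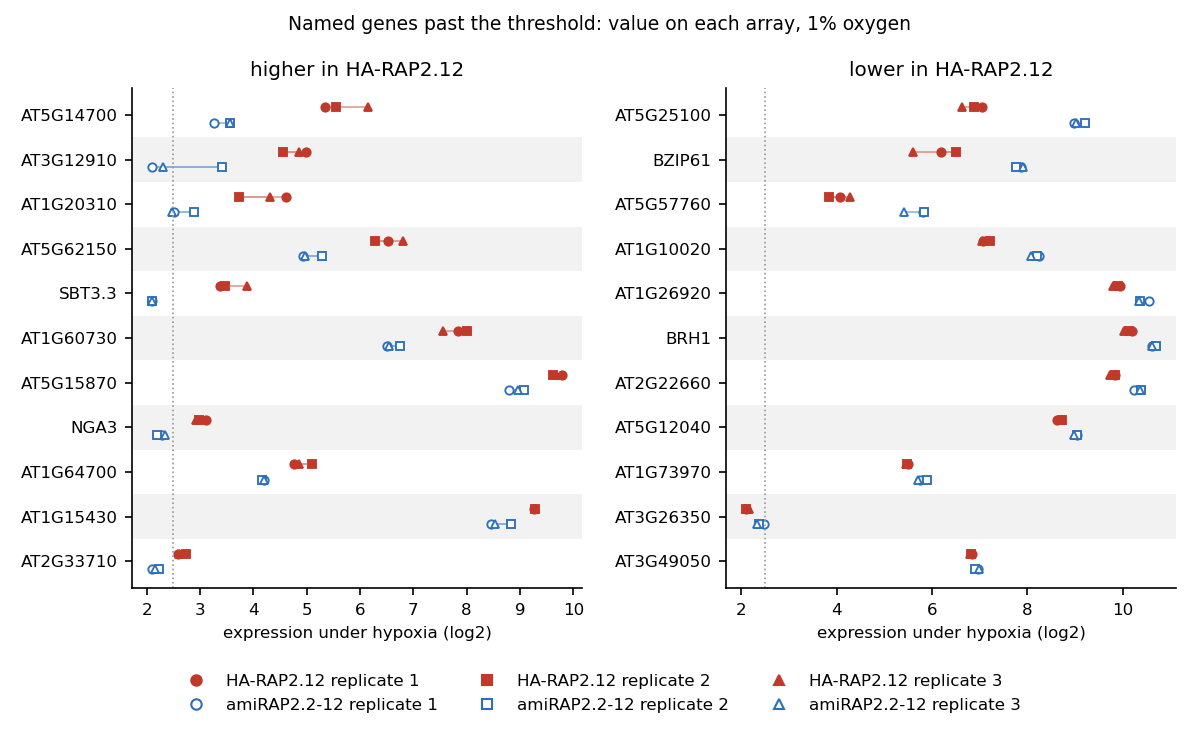
Log2 signal (horizontal axis) of the 22 named genes that differed between the lines under hypoxia, a gene per row, with a point for each of the 3 HA-RAP2.12 and 3 amiRAP2.2-12 arrays; the dotted line marks the floor at 2.5. In every row the points of the lines are apart, widely in AT5G25100 and narrowly in AT3G49050.

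Among the probe sets with no gene name, 12 were higher and 12 were lower, the one with several genes included. The largest, chosen after their values were seen, were 245317_at and 258277_at on the higher side and 251017_at and 257506_at on the lower. Probe set 245317_at read 9.21, 9.26 and 9.13 in HA-RAP2.12, compared with 6.31, 5.61 and 5.4 in amiRAP2.2-12 (log2 difference 3.43 ± 0.44, adjusted p = 0.033), and in air the difference was 2.42. By contrast 258277_at read 6.15, 5.00 and 5.60 in HA-RAP2.12, against 2.13, 3.56 and 2.33 in amiRAP2.2-12, and in air both lines were at the floor. On the lower side, 251017_at averaged 7.43 in HA-RAP2.12 and 10.01 in amiRAP2.2-12, and 257506_at averaged 5.95 in HA-RAP2.12 and 7.83 in amiRAP2.2-12.

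How each gene moved with oxygen was read from the same hypoxic arrays together with the arrays in air, so the values that follow share samples with those that chose the genes and are a description. All 11 higher genes were at least 0.5 brighter under hypoxia than in air in HA-RAP2.12, but 2 were in amiRAP2.2-12, and 6 in wild type. The 2 were AT1G60730, with 3.07 in HA-RAP2.12, 1.99 in amiRAP2.2-12 and 1.53 in wild type, and AT5G15870, with 1.60, 1.18 and 0.92 in the same order. AT5G14700 showed the other form, 2.73 brighter under hypoxia in HA-RAP2.12, against 0.10 in amiRAP2.2-12 and 0.65 in wild type. Of the 11 lower genes, 4 were at least 0.5 dimmer under hypoxia in HA-RAP2.12, 4 in amiRAP2.2-12 and 5 in wild type. BZIP61 stood at -3.76 in HA-RAP2.12, -1.66 in amiRAP2.2-12 and -2.87 in wild type, and AT1G10020 had -2.82, -1.69 and -2.54 in the same order. In 17 of the 22 genes the wild type mean under hypoxia lay between those of the transgenic lines. The genes were chosen for a gap between the lines on these arrays, and the share over all probe sets was not taken. No order of the genotypes is drawn from that count.

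The same contrast in air called 10 probe sets (0.044% of those tested), 7 higher in HA-RAP2.12 (0.0308%) and 3 lower (0.0132%), with 5.43% of all probe sets at an unadjusted p under 0.05. AT3G15140, an exonuclease family gene, was called in air alone, at 3.69 in HA-RAP2.12 and 2.84 in amiRAP2.2-12 (adjusted p = 0.0284), and its difference under hypoxia was 0.35 (adjusted p = 0.293). Of the 10, 3 were also called under hypoxia, AT5G25100, AT2G22660 and AT1G73970, each lower in HA-RAP2.12 at both oxygen levels. In 19 of the 22 named genes called under hypoxia the difference in air was smaller than 0.5 in size. They include AT2G22660, at -0.49 in air and -0.52 under hypoxia. The genes were picked from the hypoxic arrays, and the same share over all probe sets was not taken. That count therefore shows no dependence on oxygen. Whether the difference itself depended on oxygen was tested as the line difference under hypoxia minus that in air, which 4 probe sets passed (0.0176%), 1 upward (0.0044%) and 3 downward (0.0132%). SBT3.3 passed with 1.46 (adjusted p = 0.0425) and AT1G10020 with -1.13 (adjusted p = 0.00941), and both were also called under hypoxia. The interaction had an unadjusted p under 0.05 in 20 of the 22 named genes, against 5.86% of all probe sets, but since these were picked from the same hypoxic arrays, that count supports nothing further. AT5G25100 and AT2G22660 were the 2 others, with 0.28 and -0.03.

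**Figure D3:**
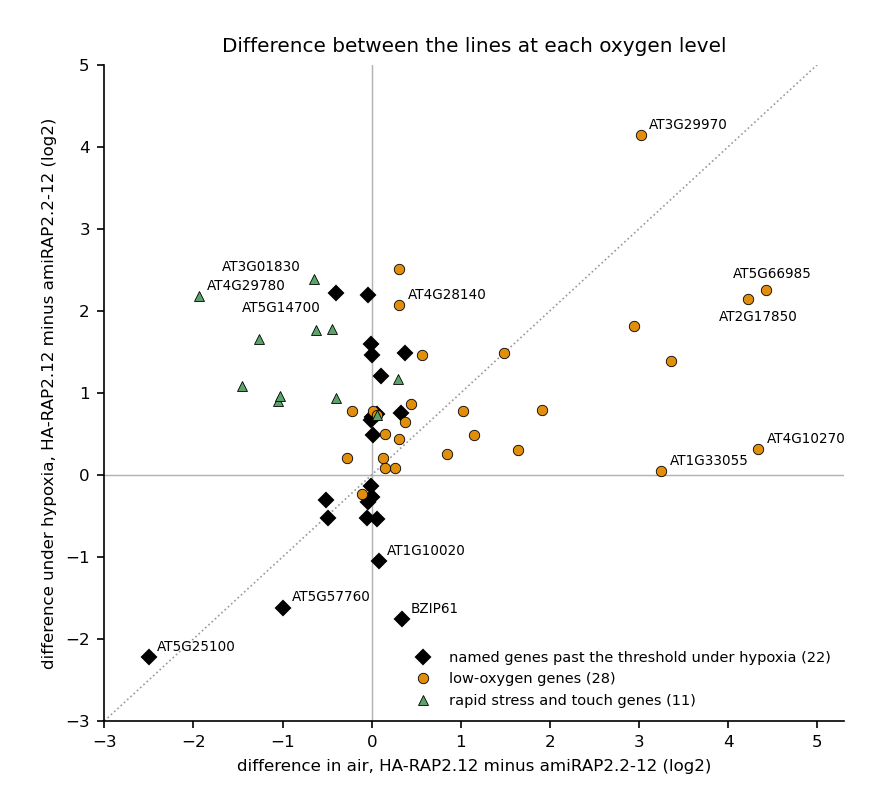
Log2 difference between the lines (HA-RAP2.12 minus amiRAP2.2-12) under hypoxia, on the vertical axis, against the same difference in air, on the horizontal axis; points are the 22 named genes called under hypoxia, 28 low-oxygen genes and 11 rapid stress genes, and the dotted line marks equal differences. Most called genes stand near 0 in air, AT5G25100 lies close to the line at -2.5 in air and -2.22 under hypoxia, low-oxygen genes such as AT4G10270 lie far to the right of 0 at 4.34 in air and 0.31 under hypoxia, and all 11 stress genes lie above 0 on the vertical axis.

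The genes most tied to the regulator are the low-oxygen genes, a list of 60 loci that respond to oxygen shortage in Arabidopsis, of which 29 had a named probe set and 28 were above the floor. The list holds genes written down with earlier results of these data in view and is not independent evidence of a direction. None of the 29 passed the test under hypoxia in limma, although 7 had an unadjusted p under 0.05, against 8.33% of all probe sets. In 27 of the 28 the difference lay above 0 and in 1 below it, while over all probe sets 38.2% lay above 0 and 40.6% below. The median difference was 0.75 over the 28 and 0.73 over all 29, beside a median of 0.00 over all probe sets. In 6 of the 28 all HA-RAP2.12 arrays were above all amiRAP2.2-12 arrays, against 4.36% of all probe sets, and in none were all below.

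AT4G28140, an AP2/ERF transcription factor gene, had the smallest adjusted p of these, 0.0924. It read 9.18, 8.23 and 9.23 in HA-RAP2.12 rosettes, against 7.18, 6.30 and 6.98 in amiRAP2.2-12, a log2 difference of 2.07 ± 0.37, and the lines did not overlap. Over 24 alternative fits its adjusted p ran from 0.00638, with the wild type arrays in the fit, to 0.434, and 5 of them passed. In air its difference was 0.31. AT5G27760, a hypoxia-responsive family protein, was among the brightest, at 12.92, 13.06 and 12.86 in HA-RAP2.12, compared with 11.81, 12.53 and 12.17 in amiRAP2.2-12 (log2 difference 0.78 ± 0.17, adjusted p = 0.163, and 0.0409 without replicate 2 of amiRAP2.2-12). AT3G03270, a universal stress protein gene, read 11.46, 11.11 and 11.31 in HA-RAP2.12, against 10.56, 8.88 and 8.98 in amiRAP2.2-12 (log2 difference 1.82 ± 0.41, adjusted p = 0.185). For all 3 genes the arrays were apart, but the spread among the amiRAP2.2-12 arrays was several times that of HA-RAP2.12 for AT5G27760 and AT3G03270.

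AT3G29970, which encodes a B12D protein, had the largest difference of the list, 4.14 ± 1.24, with 10.23, 8.94 and 9.90 in HA-RAP2.12 rosettes, against 8.18, 4.46 and 4.00 in amiRAP2.2-12 (adjusted p = 0.348). Its wild type mean under hypoxia was 7.28. The next 3 genes in size were chosen for display after their values were seen. AT5G10040 read 8.68, 8.26 and 8.64 in HA-RAP2.12 rosettes, against 9.66, 3.10 and 5.3 in amiRAP2.2-12 (log2 difference 2.51 ± 1.33, adjusted p = 0.745). AT5G66985 read 9.42, 9.76 and 9.62 in HA-RAP2.12, compared with 9.31, 5.88 and 6.86 in amiRAP2.2-12. AT2G17850, a rhodanese-like protein, read 10.22, 10.77 and 10.53 in HA-RAP2.12, against 10.99, 6.63 and 7.45 in amiRAP2.2-12. In all 3, replicate 1 of amiRAP2.2-12 read near or above the HA-RAP2.12 level and replicates 2 and 3 far below it.

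That pattern ran through the list. Replicate 1 of amiRAP2.2-12 was above all HA-RAP2.12 arrays in 19 of 28 genes and below all in 6, while replicate 2 was below all in 26 and replicate 3 below all in 27. Over all 14872 probe sets above the floor, those 3 arrays lay below all HA-RAP2.12 arrays in 29.4%, 35.5% and 26.1%. Averaged over the 28 genes, the arrays read 10.55, 10.60 and 10.69 in HA-RAP2.12 (10.61 ± 0.07, SD, n = 3) and 10.84, 8.96 and 9.12 in amiRAP2.2-12 (9.64 ± 1.04). Without replicate 1 of amiRAP2.2-12 the list's median difference was 1.18, and 5 members of all lists passed the test, AT5G66985, AT5G10040, AT3G03270 and AT2G17850 of the low-oxygen genes and AT5G09570 of the mitochondrial ones. Without replicate 2 the median was 0.36 and without replicate 3 it was 0.29. What set replicate 1 apart was not tested.

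The difference was small and the arrays overlapped in other genes of the response. HRA1 (AT3G10040), a trihelix factor that is induced by RAP2.12 and restrains it, read 10.62, 11.02 and 11.02 in HA-RAP2.12 rosettes, against 11.61, 10.34 and 9.82 in amiRAP2.2-12, a log2 difference of 0.30 ± 0.39 (adjusted p = 1.0). In air its difference was 1.64, at 5.14 in HA-RAP2.12 and 3.5 in amiRAP2.2-12, and its wild type mean under hypoxia was 11.89. AT4G10270, of a wound-responsive family, read 13.29, 13.40 and 13.36 in HA-RAP2.12, compared with 13.81, 12.76 and 12.55 in amiRAP2.2-12 under hypoxia, a difference of 0.31, whereas in air it differed by 4.34 (adjusted p = 0.0192). AT1G33055 likewise differed by 3.25 in air (adjusted p = 0.00952) and by 0.05 under hypoxia. The change of the difference with oxygen was -4.03 for AT4G10270 and -3.2 for AT1G33055. Neither change passed the test in limma (adjusted p = 0.182 and 0.0743). These 2 were the low-oxygen genes called in air. Over the list the median difference was 0.75 under hypoxia and 0.50 in air, and 14 of the 28 genes had the larger difference in air. The wild type mean under hypoxia was above the means of both transgenic lines in 24 of the 28.

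**Figure D4:**
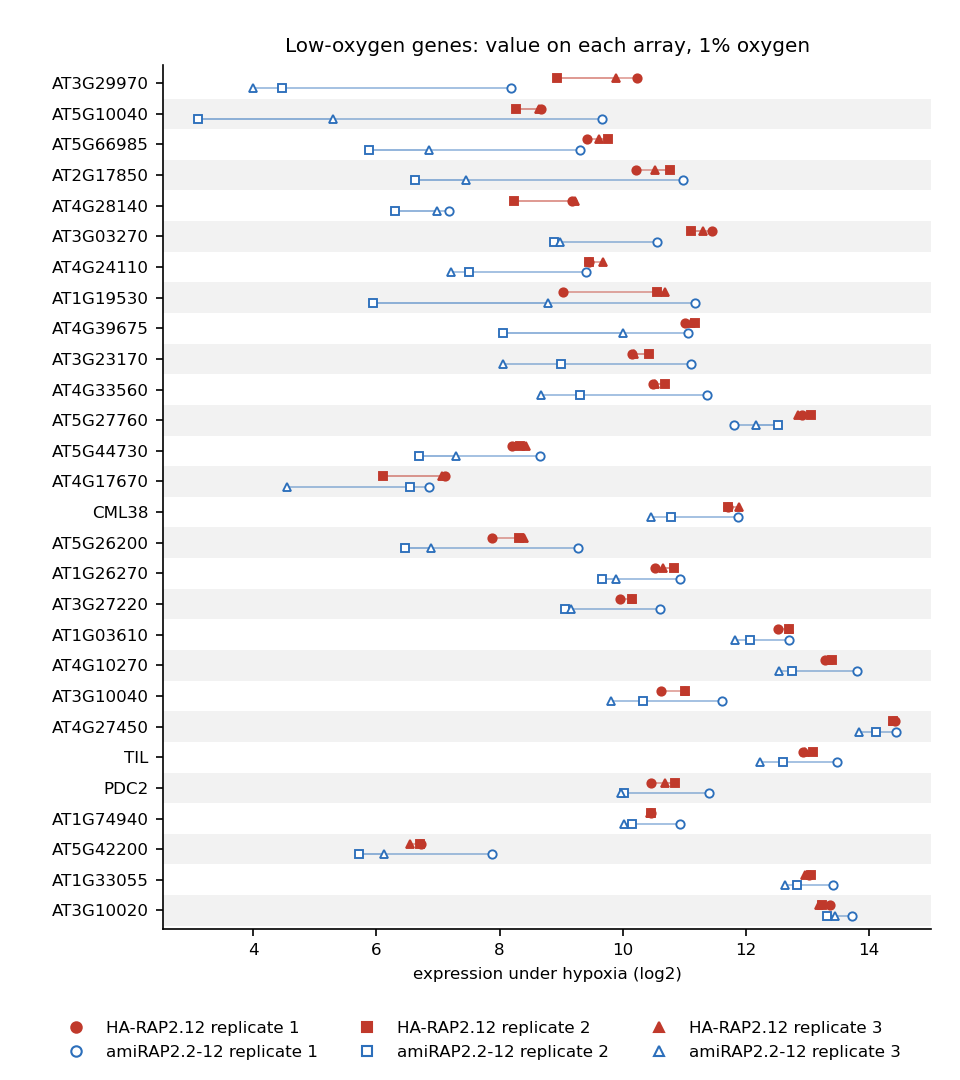
Log2 signal (horizontal axis) of the 28 low-oxygen genes above the floor, a gene per row, with a point for each of the 3 HA-RAP2.12 and 3 amiRAP2.2-12 arrays under hypoxia. HA-RAP2.12 points cluster tightly in most rows but not in all, with SDs of 0.93 in AT1G19530 and 0.67 in AT3G29970. The amiRAP2.2-12 points split in most rows, with replicate 1 above all HA-RAP2.12 arrays in 19 and replicates 2 and 3 to the left in most.

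Fermentation turns pyruvate into ethanol or lactate and so regenerates the NAD+ that glycolysis needs without oxygen. Of 23 loci listed for fermentation and sucrose breakdown, 8 had a named probe set and none passed the test. An unadjusted p under 0.05 was seen in 2, against 8.33% of all probe sets. Differences lay above 0 in 7, with a median of 0.23, beside -0.05 in air. No alcohol dehydrogenase and no sucrose synthase was among the 8, so the median does not cover those steps. AT4G17260, a lactate dehydrogenase, read 8.69, 8.92 and 8.91 in HA-RAP2.12, against 8.33, 7.85 and 8.06 in amiRAP2.2-12, apart on every array (log2 difference 0.76, adjusted p = 0.364). AT5G17380, a thiamine diphosphate-dependent enzyme, read 10.88, 10.95 and 10.75 in HA-RAP2.12 rosettes, against 9.90, 10.52 and 9.88 in amiRAP2.2-12 (log2 difference 0.76, adjusted p = 0.227). Pyruvate decarboxylase 2, PDC2, the entry to ethanol, overlapped, with 10.46, 10.86 and 10.69 in HA-RAP2.12, compared with 11.40, 10.02 and 9.97 in amiRAP2.2-12. Without replicate 2 of amiRAP2.2-12 the list's median was 0.05, and without replicate 3 it was 0.41.

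Rapid stress and touch genes, early transcription factors and calcium-related genes that answer wounding, touch and many stresses, held the most even shift. All 11 measured members, of 36 listed, lay above 0, with a median difference of 1.17 and a range of 0.73 to 2.39. None passed the test and 7 had an unadjusted p under 0.05, against 8.33% of all probe sets. This list too was written with earlier results in view. AT1G66090, a disease resistance protein of the TIR class, read 9.46, 8.94 and 9.51 in HA-RAP2.12, against 6.59, 8.56 and 7.45 in amiRAP2.2-12 (log2 difference 1.77, adjusted p = 0.3). WRKY6, a factor of defence and senescence, read 9.02, 9.05 and 9.27 in HA-RAP2.12 rosettes, against 7.25, 9.05 and 7.54 in amiRAP2.2-12. STZ, a zinc finger repressor of salt and cold stress, read 11.25, 10.66 and 11.08 in HA-RAP2.12, compared with 9.11, 11.22 and 9.97 in amiRAP2.2-12. Here it was replicate 2 of amiRAP2.2-12 that read close to HA-RAP2.12, within its range in 6 of 11 genes, while replicate 1 was below all HA-RAP2.12 arrays in 10 and replicate 3 in 11. Averages over the list were 9.15, 8.26 and 8.80 in HA-RAP2.12 (8.73 ± 0.45), against 6.63, 8.21 and 7.12 in amiRAP2.2-12 (7.32 ± 0.81). The wild type mean was 7.15, near amiRAP2.2-12. In air the list's median difference had the other sign, -0.65, with list averages of 6.34 in HA-RAP2.12 and 7.11 in amiRAP2.2-12. CML38, a calmodulin-like gene, stands on both the low-oxygen and the stress list and followed the low-oxygen pattern, with 11.71, 11.71 and 11.90 in HA-RAP2.12, against 11.87, 10.78 and 10.47 in amiRAP2.2-12.

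Salicylic acid and pathogen defence genes had the largest median difference of any list with at least 4 members, 1.46 over 6 measured of 28 listed, beside 0.05 in air. All 6 lay above 0, none passed the test, and 3 had an unadjusted p under 0.05, against 8.33% of all probe sets. AT1G26380, an FAD-linked oxidoreductase of indole defence compounds, read 8.78, 8.55 and 8.67 in HA-RAP2.12 rosettes, against 4.35, 6.74 and 6.36 in amiRAP2.2-12 (log2 difference 2.85, adjusted p = 0.293). AT5G39580, a peroxidase, read 6.86, 7.11 and 6.91 in HA-RAP2.12, compared with 3.32, 4.44 and 4.57 in amiRAP2.2-12 (log2 difference 2.85, adjusted p = 0.322). Both had HA-RAP2.12 arrays close to each other and all above the other line. OSM34, an osmotin, overlapped, with 3.64, 4.96 and 6.10 in HA-RAP2.12, against 3.78, 2.48 and 2.31 in amiRAP2.2-12. The genes were not alike in air, where 3 of the 6 differences lay above 0 and none passed the test. There OSM34 differed by 1.95, and AT5G39580 by -1.03, at 6.02 in HA-RAP2.12 and 7.05 in amiRAP2.2-12. Wild type under hypoxia differed by gene, at 2.86 for AT5G39580 and 8.15 for OSM34. List averages were 6.51, 6.43 and 6.78 in HA-RAP2.12 rosettes, against 4.47, 5.39 and 5.08 in amiRAP2.2-12, and wild type averaged 6.45.

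Heat shock genes and chaperones, which keep other proteins folded, gave no steady order. Of 14 measured members 11 were above the floor, 3 with a difference above 0 and 8 below, with a median of -0.16, and none passed the test. AT2G19310, a small heat shock protein, read 8.57, 8.04 and 7.35 in HA-RAP2.12, compared with 10.06, 8.75 and 8.71 in amiRAP2.2-12, with no overlap (log2 difference -1.19, adjusted p = 0.464). AT5G37670, another small heat shock protein, read 4.33, 4.41 and 4.30 in HA-RAP2.12, against 6.09, 4.70 and 4.80 in amiRAP2.2-12. In AT1G53540 a single array stood out, with 2.72, 2.21 and 2.21 in HA-RAP2.12 rosettes, against 6.05, 2.5 and 2.21 in amiRAP2.2-12. Replicate 1 of amiRAP2.2-12 was the highest of its line in 9 of the 11 genes. The median was 0.34 without replicate 1 of amiRAP2.2-12, -1.02 without replicate 2 and -0.41 without replicate 3. Without replicate 3 of HA-RAP2.12 it was 0.18.

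Ethylene accumulates in plants short of oxygen and acts on the same family of factors. The 3 measured genes of its pathway, of 26 listed, were all lower in value in HA-RAP2.12, with none past the test. An unadjusted p under 0.05 was seen in 2, against 8.33% of all probe sets. RTE1, a regulator of the receptor ETR1, read 8.56, 8.65 and 8.50 in HA-RAP2.12, compared with 9.06, 8.83 and 8.89 in amiRAP2.2-12 (log2 difference -0.36 ± 0.07, adjusted p = 0.106). AT1G12010, of the ACC oxidase family that makes ethylene, read 5.71, 5.92 and 5.57 in HA-RAP2.12, against 6.76, 7.15 and 7.30 in amiRAP2.2-12 (log2 difference -1.34 ± 0.28, adjusted p = 0.15). Neither overlapped, and wild type under hypoxia, at 8.92 and 6.91, was near amiRAP2.2-12 in both. EIN3, the central factor of the pathway, had a difference of -0.17.

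Genes of photosynthesis had small differences, and none passed the test. The 7 nuclear genes of light harvesting and the photosystems averaged 13.90 ± 0.04 in HA-RAP2.12 and 13.92 ± 0.08 in amiRAP2.2-12, with 1 difference above 0 and 6 below, and the 4 Calvin cycle and starch genes had a median difference of -0.07. LHCB4.3, an antenna protein, was the exception in size, with 10.56, 9.81 and 10.19 in HA-RAP2.12 rosettes, against 9.39, 9.87 and 9.95 in amiRAP2.2-12, which overlap. Of 69 chloroplast-encoded genes 36 lay above 0 and 33 below, with a median of 0.01 and a range of -1.03 to 1.11. None passed the test while 10 had an unadjusted p under 0.05, against 8.33% of all probe sets. The spread among amiRAP2.2-12 arrays was wide: replicate 1 was above all HA-RAP2.12 arrays in 43 of 69, and replicate 2 was below all in 52. The groups did not overlap in 11 with HA-RAP2.12 higher and 4 with it lower, against 10.2% of all probe sets in either direction. The gene with the smallest adjusted p of the list was atpE, which like atpB encodes a subunit of the chloroplast ATP synthase, and neither overlapped. Values of atpE were 15.50, 15.41 and 15.54 in HA-RAP2.12, compared with 15.01, 14.76 and 15.23 in amiRAP2.2-12 (log2 difference 0.48 ± 0.10, adjusted p = 0.148). For atpB the values were 15.07, 15.00 and 15.05 in HA-RAP2.12, against 14.71, 14.19 and 14.83 in amiRAP2.2-12 (log2 difference 0.46 ± 0.14, adjusted p = 0.346). Their differences in air were 0.45 and 0.48.

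**Figure D5:**
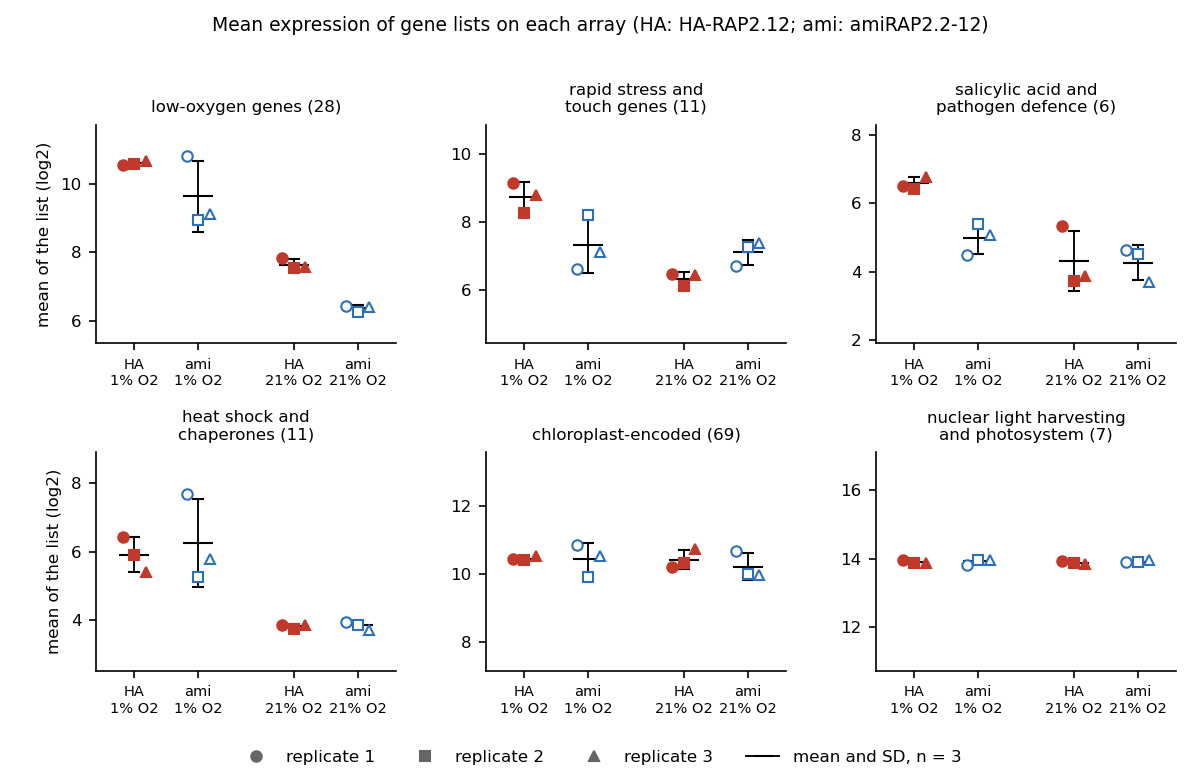
Mean log2 signal (vertical axis) over the genes of 6 lists, a panel per list, for HA-RAP2.12 at 1% oxygen, amiRAP2.2-12 at 1%, HA-RAP2.12 at 21% and amiRAP2.2-12 at 21%; points are arrays and bars the mean ± SD of 3 arrays. Under hypoxia the amiRAP2.2-12 arrays spread widely for low-oxygen genes (10.84, 8.96 and 9.12) and heat shock genes (7.70, 5.27 and 5.79), while light-harvesting genes sit near 13.9 in every group.

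The remaining lists also gave no gene past the test. Of 25 cell wall and expansion genes above the floor, 11 lay above 0 and 14 below, with a median of -0.01. XTH18, a cell wall xyloglucan enzyme, read 6.61, 6.30 and 6.91 in HA-RAP2.12 rosettes, against 4.26, 6.64 and 4.67 in amiRAP2.2-12. Of 6 calmodulin-like and calcium-dependent kinase genes above the floor, 4 lay above 0 and 2 below, with a median of 0.47 and 0.15 without replicate 1 of HA-RAP2.12. CML30 had the only pair of groups in that list that did not overlap, with a log2 difference of -0.46. Of 4 jasmonate genes 3 lay above 0, with a median of 0.33 and -2.22 in air. None passed the test in air, where amiRAP2.2-12 arrays spread widely. Averages of the list in air were 5.6, 5.2 and 5.94 in HA-RAP2.12, against 8.57, 7.56 and 5.14 in amiRAP2.2-12. The median under hypoxia was 0.06 without replicate 3 of HA-RAP2.12 and 0.57 without replicate 2 of amiRAP2.2-12. PDF1.2, a plant defensin, read 8.17, 5.00 and 7.68 in HA-RAP2.12, compared with 4.34, 5.32 and 4.89 in amiRAP2.2-12. Of 6 mitochondrial dysfunction genes 3 lay above 0 and 3 below, and of 5 dark and sugar starvation genes 1 lay above and 4 below. The median differences were 0.11 for 5 abscisic acid and cold genes, -0.07 for 5 WRKY factors and -0.23 for 7 glutathione transferases. Single arrays moved these values: without replicate 2 of amiRAP2.2-12 they were 0.41, 0.50 and -0.14. The abscisic acid and cold median turned to -0.04 without replicate 1 of amiRAP2.2-12 and -0.05 without replicate 3, and the WRKY median to 0.17 without replicate 2 of HA-RAP2.12. ORA47, the 1 ethylene response factor of that list above the floor, read 9.45, 7.60 and 7.51 in HA-RAP2.12 rosettes, against 7.09, 7.38 and 6.86 in amiRAP2.2-12. Its difference of 1.08 was 0.45 without replicate 1 of HA-RAP2.12. The clock gene GI differed by -0.24. Over all 24 lists 244 genes had a named probe set, and 0 passed the test under hypoxia in limma. An unadjusted p under 0.05 was seen in 40, against 8.33% of all probe sets. Without replicate 2 of amiRAP2.2-12, 4 passed, AT3G54150 with 2.44 (adjusted p = 0.00865), AT5G17380 with 0.97 (0.0348), AT5G27760 with 0.96 (0.0409) and atpB with 0.27 (0.0484), and without replicate 3 of amiRAP2.2-12 atpE passed.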

How the data were processed

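Total RNA of whole rosettes was measured on 18 Affymetrix arrays, and the log2 values deposited by the authors had been made with GCRMA, per the submitters' processing notes; version, build and further steps are not given in the sources used here. The 64 AFFX control probe sets were left out. Probe sets were named through the platform annotation and RefSeq (13513 of a single named gene, 503 of several, 8730 unnamed), and a list gene was represented by its probe set with the highest mean. A limma model (version 3.58.1, R 4.3.3) was fitted to the 12 arrays of both transgenic lines at both oxygen levels, and p-values were adjusted by Benjamini-Hochberg over all 22746 probe sets, with a threshold of 0.05. The floor limit was log2 2.5. Fold changes are log2 differences, HA-RAP2.12 minus amiRAP2.2-12. No depth exists for arrays, and 3 arrays a group limit the precision. Named genes were the 10 largest rises and 10 largest falls past the threshold without overlap, up to 4 members of each list by adjusted p, HRA1, and the 5 largest on each side in air and in the interaction. Members and lists were chosen with earlier results of these data known. Alternatives were other sets of arrays, quantile normalization, median centring, a filter on dim probe sets (above log2 4 on 3 arrays) and no cross-hybridising probe sets. Others were a trended robust prior, array weights, a replicate block, a minimum difference, the mean of the probe sets per gene, and each array left out. The fit was tested on simulated data. Promoter sequences were not analysed here. Figures were drawn with Matplotlib 3.10.9.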

Additional observations from a re-analysis of the deposited data

Results flagged for a closer look

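In 4 probe sets the difference between the lines under hypoxia departed from that in air by a test of the departure itself in limma. SBT3.3 departed by 1.46 (adjusted p = 0.0425), with HA-RAP2.12 at 3.57 and amiRAP2.2-12 at 2.11 under hypoxia and both at 2.11 in air. AT1G10020 departed by -1.13 (adjusted p = 0.00941), with HA-RAP2.12 at 7.12 and amiRAP2.2-12 at 8.17 under hypoxia, against 9.94 and 9.86 in air. AT4G04940, a WD40 repeat protein, departed by -0.34 (adjusted p = 0.035), with 2.21 and 2.19 under hypoxia against 2.55 and 2.19 in air. Probe set 261776_at, which is not named here, departed by -0.52 (adjusted p = 0.00941), with 2.15 and 2.15 under hypoxia against 2.71 and 2.19 in air. SBT3.3, AT4G04940 and 261776_at were each at the floor in 3 of the 4 groups, so their departures are measured from it. Their p-values lean on arrays at the floor, where no spread can be read.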

How the results depend on the processing

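The count under hypoxia, 46, became 230 with all 18 arrays (106 higher, 124 lower), 84 with median centring (34 higher, 50 lower), 86 when dim probe sets were filtered, 730 with array weights, 26 with a log2 difference of at least 1 and 4 with the replicate block. The 6 hypoxic arrays alone gave 0 in limma, with 1525 at an unadjusted p under 0.05. Left out in turn, arrays gave 6 to 121. In air, 10 became 42 with all 18 arrays, 3 with 6 arrays, 21 with array weights, 5 with the minimum difference and 8 to 26 without an array. The interaction, 4, became 43 with all 18 arrays, 8 with centring, 10 with the filter, 102 with weights, 2 with the minimum difference, 0 with the replicate block (1243 unadjusted) and 3 to 53 without an array. List members past the threshold, 0, became 6, 2, 1 and 20 with all 18 arrays, centring, the filter and weights, and 0 to 5 without an array. Chosen after seeing the data, leaving out hypoxic amiRAP2.2-12 replicate 2 with the dim filter gave 342, 17, 218 and 13 for the 4 counts, and leaving it out with hypoxic HA-RAP2.12 replicate 1 gave 70, 7, 29 and 1. The causes of these moves were not tested. Of the 20 largest named changes none reversed and none was called under every alternative: 3 were called with the replicate block and 0 with the 6 arrays alone, which was the only loss for SBT3.3, AT5G25100 and AT1G10020. Centring moved hypoxic amiRAP2.2-12 replicate 2 by 0.1433, and its calls split 6 higher to 1 lower in air and 4 to 4 in the interaction. Deviations of same-numbered arrays correlated at -0.5182, -0.5764 and 0.2997 between the hypoxic lines, at -0.2643 to -0.2335 between the lines in air, and within a line between hypoxia and air at 0.4652, 0.3781 and 0.0636 in HA-RAP2.12, against 0.1964, 0.4917 and 0.0434 in amiRAP2.2-12. Each group was centred on its own mean of 3 arrays, which ties its deviations together. Whether the numbers pair the lines is therefore not settled by these values. Nor is the pairing within a line, which bears on the interaction. Between differently numbered hypoxic arrays of the lines, correlations ran from -0.4666 to 0.6362. The highest was HA-RAP2.12 replicate 1 with amiRAP2.2-12 replicate 2, then HA-RAP2.12 replicate 2 with amiRAP2.2-12 replicate 1, at 0.507. What these arrays share was not tested.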
